A study of Homo sapiens with 24 samples.

Results

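The 10 genes described here make, cross-link and fold collagen or, in 1 case, are a collagen themselves: P4HA1, P4HA2, P4HB, PLOD1, PLOD2, PLOD3, LOX, LOXL2, SERPINH1 and COL13A1. They were chosen by name, with earlier results of these data known, and all 10 were found among the 18239 genes with a probe set on the array. Their signals were measured in total RNA of HCT116, a human colon cancer cell line, on 24 Affymetrix 3′ expression arrays. Parental HCT116 cells (genotype WT) were kept in normoxia without treatment, in normoxia with 10 nM 17β-estradiol, in hypoxia without treatment and in hypoxia with 10 nM 17β-estradiol. ESR2 cells (genotype ESR2+), the same line made to express estrogen receptor beta, were kept in the same 4 conditions, and each of the 8 groups holds 3 arrays.

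Per the labels, ESR2 cells carry full-length ESR2 fused to HaloTag from a lentiviral vector that also encodes GFP, and were selected with puromycin as a mixed population. The parental groups are not labelled as carrying an empty vector, so the vector and the receptor cannot be told apart. The estradiol groups were grown in medium without phenol red and with serum stripped on charcoal. For the untreated groups the medium is not given in the labels, nor is the duration of hypoxia, so that medium and estradiol cannot be told apart. Nothing in the labels says that replicates were separate cultures, so a p-value here measures no more than how far these arrays spread, and that spread may be technical. Having 3 arrays per group limits the precision.

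Collagen chains are modified in the endoplasmic reticulum before they fold into a triple helix. Prolyl 4-hydroxylases, built from a catalytic alpha subunit (P4HA1 or P4HA2) and the beta subunit P4HB, hydroxylate prolines and so stabilise the helix, while lysyl hydroxylases (PLOD1, PLOD2 and PLOD3) hydroxylate lysines that later carry cross-links. These hydroxylases use oxygen, iron, 2-oxoglutarate and ascorbate. SERPINH1, the chaperone HSP47, binds folded procollagen, and the secreted copper enzymes LOX and LOXL2 oxidise lysines outside the cell to start cross-linking. Several of these genes are textbook targets of the hypoxia-inducible factors (HIF), which bind DNA at a short core sequence.

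Bases upstream of 4 of the genes are shown as examples of unlike hypoxia values. P4HA1 and PLOD2 rose in every hypoxia comparison, as did P4HA2, P4HB, PLOD1, LOXL2 and COL13A1, which are not shown. LOX rose in none, and SERPINH1 rose only where ESR2 cells were compared. Each is the 250 bases before the start of the gene in RefSeq (GRCh38.p14), 5′ to 3′ on the gene's strand: chr10:73096867-73097116 on the minus strand for P4HA1, chr3:146161185-146161434 on the minus strand for PLOD2, chr5:122078260-122078509 on the minus strand for LOX and chr11:75562003-75562252 on the plus strand for SERPINH1. Capitals mark the HIF core (ACGTG or GCGTG, searched on both strands) in the first 3, and the heat shock element (GAANNTTC or TTCNNGAA) in SERPINH1.
P4HA1: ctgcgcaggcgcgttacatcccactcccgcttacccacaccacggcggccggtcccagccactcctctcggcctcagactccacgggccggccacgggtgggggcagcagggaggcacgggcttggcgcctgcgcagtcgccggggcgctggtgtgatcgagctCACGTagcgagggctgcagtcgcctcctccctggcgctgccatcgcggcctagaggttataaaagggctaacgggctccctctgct
PLOD2: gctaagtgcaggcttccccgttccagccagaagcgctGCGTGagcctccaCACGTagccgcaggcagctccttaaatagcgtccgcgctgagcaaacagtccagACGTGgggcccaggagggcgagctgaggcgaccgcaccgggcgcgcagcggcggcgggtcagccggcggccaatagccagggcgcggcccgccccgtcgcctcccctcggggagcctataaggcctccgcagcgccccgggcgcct
LOX: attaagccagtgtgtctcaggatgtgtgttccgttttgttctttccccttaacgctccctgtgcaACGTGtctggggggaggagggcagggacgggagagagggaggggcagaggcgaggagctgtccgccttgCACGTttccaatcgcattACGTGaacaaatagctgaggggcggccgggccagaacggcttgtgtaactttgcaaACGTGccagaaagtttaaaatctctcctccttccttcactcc
SERPINH1: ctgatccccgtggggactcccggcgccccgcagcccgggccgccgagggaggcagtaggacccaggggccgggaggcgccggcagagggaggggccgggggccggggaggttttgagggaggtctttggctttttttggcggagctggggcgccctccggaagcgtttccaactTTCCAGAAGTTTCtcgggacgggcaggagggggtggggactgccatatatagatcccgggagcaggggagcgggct
LOX, which did not rise, holds 4 HIF core matches in this window, at 185, 116, 98 and 42 bases before the start. PLOD2 holds 3 matches, at 213, 200 and 146 bases, and P4HA1 holds 1, at 86 bases. SERPINH1 has no HIF core match here and has 2 overlapping heat shock matches, at 76 and 71 bases. Windows of 9 of the 10 genes were searched, all but LOXL2, and 6 of these 9 hold a HIF core. Beside the 3 above, PLOD1 has 2 matches (68 and 25 bases before the start), P4HB 1 (89 bases) and COL13A1 1 (144 bases), while P4HA2 and PLOD3 have none. The window of P4HA2 precedes a start that lies 762 bases inside the annotated end of the gene. The bases before its outermost start were thus not searched. A HIF core match is found in 43.2% of all 35116 RefSeq windows of this length. The heat shock element is found in 11.6% of them, and SERPINH1 is the only 1 of the 9 with it. A match describes the letters and does not show that a factor binds there.

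Across all arrays, ESR2 signal lay between 3.28 and 3.56 (log2) in the 12 parental arrays and between 3.92 and 4.89 in the 12 ESR2 arrays. It was higher in ESR2 cells in all 4 conditions, by 0.46 to 1.05 (limma, adjusted p from 6.44e-06 to 0.00608). Within ESR2 cells ESR2 signal fell by 0.44 in hypoxia without estradiol and fell by 0.48 with it (adjusted p = 0.0124 and 0.00401), and the part of this in the results below was not tested. Of 9 markers of colon epithelial lines, 6 (EPCAM, KRT8, KRT18, KRT19, CDH1 and CDX2) lay above the array's median on all 24 arrays, whereas CDH17 and VIL1 did so on none and CDX1 on 1. None of 10 fibroblast markers did so on all arrays, 9 did so on none, and COL1A1 did so on 4. Replicate 2 of parental normoxia stood apart: its signal near the 3′ end of dap, a spiked control RNA, exceeded that near the 5′ end by 4.46 (log2), against 2.48 and 2.31 in replicates 1 and 3. The 3 arrays of hypoxic ESR2 cells with estradiol also stood apart, at 3.44, 3.75 and 3.53, while every other array lay between 2.00 and 2.79. For the 10 genes, the hypoxia changes that use these arrays are given further on without that replicate or with an index of the control probe sets in the fit. That index was 3.74 ± 0.30 (SD, n = 3) in hypoxic ESR2 cells with estradiol and 2.10 ± 0.10 without. Within groups it varied most in parental normoxia (SD 0.99). The fit takes its slope from the spread within groups, so calls kept in it do not show that array quality had no part. Of 5 leukocyte markers CD68 lay above the median on all 24 arrays, CD3E on 4 and PTPRC, CD14 and ITGAM on none, and of 4 endothelial markers VWF did so on 24, PECAM1 on 23, CDH5 on 4 and KDR on none. The mean leukocyte marker signal was 4.02 to 4.08 in hypoxic ESR2 cells with estradiol and 3.498 to 3.81 on all other arrays, and its part in the results of that group was not tested.

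Hypoxia raised most of the 10 genes in parental and in ESR2 cells. The genes were chosen with earlier results of these data known, so their counts beside those of all genes are a description and no test. A gene is called higher or lower here where limma's Benjamini-Hochberg adjusted p, over all 18239 genes, is under 0.05. In parental cells without estradiol 8 of the 10 rose and none fell, where 37.5% of all genes passed the test, 16.4% as higher and 21.2% as lower. In ESR2 cells without estradiol 9 rose and 1, LOX, fell, where 32.6% of all genes passed, 14.4% as higher and 18.2% as lower. With estradiol 8 of 10 rose in parental cells (34.8% of all genes passed, 16.1% as higher and 18.7% as lower) and 8 of 10 in ESR2 cells (52.3% passed, 29.6% as higher and 22.6% as lower). The median log2 difference of the 10 genes was 1.42, 1.55, 1.60 and 0.91 in these comparisons in turn, against medians of 0.0033, -0.055, -0.0011 and 0.083 over all genes.

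Without replicate 2 of parental normoxia the hypoxia changes of parental cells were 2.98 for P4HA1, 1.35 for P4HA2, 0.40 for P4HB, 1.87 for PLOD1, 2.25 for PLOD2, 0.44 for PLOD3, -0.052 for LOX, 2.06 for LOXL2, 0.20 for SERPINH1 and 3.46 for COL13A1, and the same 8 genes were called. With the control index in the fit the hypoxia changes of ESR2 cells with estradiol were 3.10 for P4HA1, 1.06 for P4HA2, 0.95 for PLOD1, 2.09 for PLOD2, 1.18 for LOXL2, 0.48 for SERPINH1 and 0.61 for COL13A1, all called, and 0.16 for LOX, not called. P4HB lost its call in that fit and PLOD3 was called lower, as given with these genes.

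**Figure D1:**
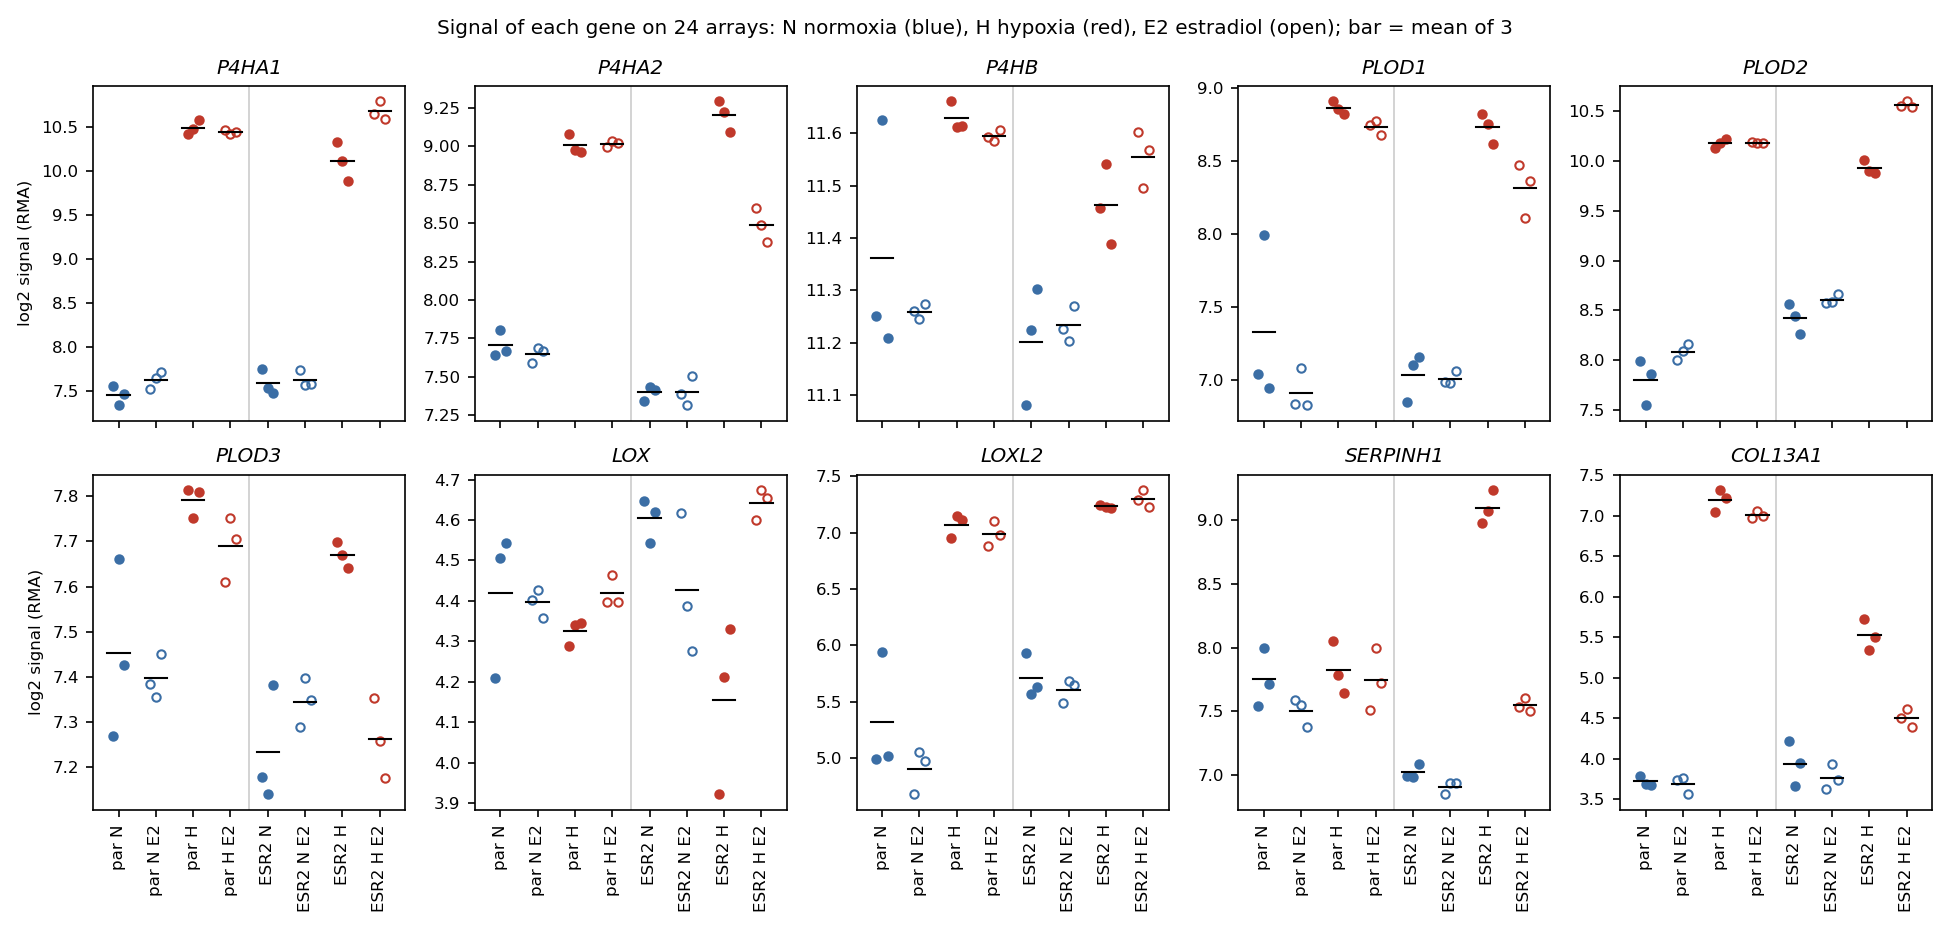
Each panel plots the log2 RMA signal (y axis) of 1 of the 10 genes on 24 arrays, with the 8 groups along the x axis, 3 points and a bar at their mean per group, blue for normoxia, red for hypoxia and open points for estradiol. P4HA1 and PLOD2 separate normoxia from hypoxia in every pair of groups, SERPINH1 is highest in hypoxic ESR2 cells without estradiol (8.98 to 9.23), and COL13A1 falls from 7.04 to 7.32 in hypoxic parental cells to 5.34 to 5.73 in hypoxic ESR2 cells.

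P4HA1, the main catalytic subunit of prolyl 4-hydroxylase in many cells, had 1 of the largest rises on the array, ranking 13th, 7th, 11th and 5th of 18239 genes by rise in hypoxia in parental cells, in ESR2 cells, in parental cells with estradiol and in ESR2 cells with estradiol. Its log2 signals in parental cells without estradiol were 7.55, 7.34 and 7.47 in normoxia and 10.42, 10.48 and 10.58 in hypoxia. In ESR2 cells they were 7.75, 7.54 and 7.48 in normoxia and 10.33, 10.12 and 9.89 in hypoxia. The groups did not overlap, and hypoxic signal was 8.21-fold higher in parental cells (log2 3.04, SE 0.10, limma adjusted p = 5.36e-17) and 5.75-fold higher in ESR2 cells (2.52, SE 0.10, adjusted p = 5.55e-15). In bulk samples such as these, a rise in some of the cells and a rise in all of them cannot be told apart.

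The hypoxia change of P4HA1 was smaller in ESR2 cells than in parental cells by 0.51 (SE 0.13, limma adjusted p = 0.00514 for the difference between the changes). In hypoxia itself ESR2 cells were lower by 0.38 (adjusted p = 0.00257), while in normoxia they differed by 0.13, which did not pass the test (adjusted p = 0.382). With estradiol the 3 parental arrays read 7.53, 7.65 and 7.72 in normoxia and 10.47, 10.42 and 10.45 in hypoxia. The ESR2 arrays read 7.74, 7.57 and 7.58 in normoxia and 10.65, 10.79 and 10.60 in hypoxia. All hypoxic arrays again lay above all normoxic ones, with changes of 2.81 and 3.05, and the difference between these changes, 0.24, was not called (adjusted p = 0.179). A higher level in hypoxic ESR2 cells with estradiol than in parental ones (0.23, limma adjusted p = 0.0493) was lost on leaving out any 1 of 5 of the 6 arrays compared, with values of 0.17 to 0.25. It was kept only without replicate 3 of hypoxic ESR2 cells with estradiol.

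P4HA2, the second catalytic subunit, rose in all 4 hypoxia comparisons and, unlike P4HA1, showed the larger change in ESR2 cells when estradiol was absent. Its signals in parental cells were 7.64, 7.81 and 7.67 in normoxia and 9.08, 8.97 and 8.96 in hypoxia, a 2.47-fold rise (log2 1.30, SE 0.07, limma adjusted p = 5.67e-13). ESR2 cells gave 7.35, 7.44 and 7.41 in normoxia and 9.29, 9.23 and 9.10 in hypoxia, a 3.499-fold rise (1.81, adjusted p = 9.56e-15). ESR2 cells thus lay below parental cells in normoxia and above them in hypoxia, with no overlap in either. The hypoxia changes differed by 0.51 (SE 0.10, limma adjusted p = 0.000429). The normoxic difference was -0.31 (adjusted p = 0.00354). The hypoxic one, 0.20 (adjusted p = 0.0297), was lost without replicate 1 or 2 of hypoxic ESR2 cells and without replicate 2 or 3 of hypoxic parental cells (0.15 to 0.19).

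With estradiol the order of P4HA2 in hypoxia was turned. Parental cells read 7.59, 7.69 and 7.67 in normoxia and 8.99, 9.03 and 9.02 in hypoxia, and ESR2 cells 7.39, 7.31 and 7.51 in normoxia and 8.60, 8.49 and 8.38 in hypoxia. The hypoxic ESR2 arrays all lay below the hypoxic parental ones, by 0.53 (SE 0.07, limma adjusted p = 1.09e-06). The hypoxia changes were 1.37 and 1.08, and their difference of -0.28 (adjusted p = 0.0289) was lost without replicate 3 of hypoxic or of normoxic ESR2 cells with estradiol, without replicate 2 or 3 of hypoxic parental cells with estradiol, and without replicate 1 of normoxic parental cells with estradiol (-0.28 to -0.23). In normoxia with estradiol ESR2 cells were lower by 0.25 on the log2 scale (adjusted p = 0.0218), which 4 of the 6 single-array omissions took past the threshold: replicates 1 and 2 of the ESR2 group and replicates 2 and 3 of the parental group (-0.24 to -0.20).

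P4HB, the shared beta subunit and a protein disulfide isomerase, rose by 0.26 to 0.34. Its signal lay between 11.08 and 11.62 in normoxia and between 11.39 and 11.66 in hypoxia. The hypoxia changes were 0.27, 0.26, 0.34 and 0.32 in parental, ESR2, parental with estradiol and ESR2 with estradiol cells, each SE 0.08, with limma adjusted p of 0.0108, 0.0164, 0.00182 and 0.00197. In parental cells the groups overlapped because replicate 2 of normoxia read 11.62 beside 11.25 and 11.21. Without that array the change was 0.40 (adjusted p = 2.44e-05), and without replicate 1 or 3 of normoxia it was 0.21 or 0.19 and not called. The call in ESR2 cells was lost without replicate 1 of normoxia (0.20) or replicate 2 of hypoxia (0.22). Of the 6 probe sets of P4HB 5 rose in parental cells, 1 in ESR2 cells and 2 in each with estradiol, and the mean of the 6 changed by 0.88 in parental cells. In the other 3 comparisons that mean was 0.36, 0.39 and 0.30 and was not called (limma adjusted p = 0.176, 0.139 and 0.204). With the spread taken from the compared groups alone the parental call was lost (adjusted p = 0.124). The changes of parental and ESR2 cells differed by -0.01 (95% interval -0.25 to 0.23). In the fit with the control index the change in ESR2 cells with estradiol was 0.19 and not called (adjusted p = 0.0984). Among the 6 probe sets, the largest change in parental cells, 2.15, came from 1 with an SD of 2.43 over the 3 normoxic arrays. The same probe set changed by 0.51 in parental cells with estradiol, with a normoxic SD of 0.047. The mean of 0.88 includes this probe set.

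PLOD2, the lysyl hydroxylase that modifies the telopeptide ends of collagen, rose in all 4 hypoxia comparisons. Its signals in parental cells were 7.99, 7.54 and 7.86 in normoxia and 10.13, 10.18 and 10.22 in hypoxia, a 5.21-fold rise (log2 2.38, SE 0.09, limma adjusted p = 5.60e-16). ESR2 cells read 8.56, 8.44 and 8.26 in normoxia and 10.01, 9.90 and 9.88 in hypoxia, a 2.85-fold rise (1.51, adjusted p = 7.10e-12). ESR2 cells therefore started above parental cells and ended below them, without overlap in either oxygen state. The changes differed by -0.87 (SE 0.12, limma adjusted p = 8.26e-06), and the 4 probe sets of PLOD2 gave differences between -0.87 and -0.85, all called. In normoxia ESR2 cells were higher by 0.62 (adjusted p = 2.31e-05). The hypoxic difference, -0.25 (adjusted p = 0.0286), was lost without replicate 2 or 3 of either hypoxic group (-0.24 to -0.22).

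With estradiol, PLOD2 in parental cells read 7.999, 8.09 and 8.17 in normoxia and 10.19, 10.18 and 10.19 in hypoxia. ESR2 cells read 8.58, 8.59 and 8.67 in normoxia and 10.56, 10.60 and 10.54 in hypoxia. The hypoxia changes were 2.10 and 1.96, and here the difference between them, -0.14 (95% interval -0.40 to 0.11), was not called (limma adjusted p = 0.386). ESR2 cells were higher in both oxygen states, by 0.52 in normoxia (adjusted p = 0.000175) and 0.38 in hypoxia (adjusted p = 0.000809).

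PLOD1, which hydroxylates lysines within the helix, rose in all 4 comparisons. Parental cells read 7.04, 7.99 and 6.94 in normoxia and 8.91, 8.86 and 8.82 in hypoxia, and ESR2 cells 6.85, 7.10 and 7.15 in normoxia and 8.82, 8.76 and 8.62 in hypoxia. The 7.99 belongs to replicate 2 of parental normoxia, the array that stood apart, and even so no normoxic array reached a hypoxic one. The changes were 1.54 in parental cells (SE 0.17, limma adjusted p = 5.80e-08), 1.87 without that array, and 1.70 in ESR2 cells (adjusted p = 3.76e-08). With estradiol parental cells read 6.83, 7.08 and 6.82 in normoxia and 8.75, 8.78 and 8.68 in hypoxia, a change of 1.82. ESR2 cells with estradiol read 6.98, 6.98 and 7.06 in normoxia and 8.47, 8.11 and 8.36 in hypoxia, a change of 1.31. The difference between parental and ESR2 changes was 0.16 without estradiol (adjusted p = 0.657) and -0.51 with it (95% interval -1.005 to -0.02, adjusted p = 0.0922), and neither was called. The latter was called with the control index in the fit (-0.88, adjusted p = 0.00296), with array weights (-0.50, adjusted p = 0.00776), with the spread of the compared groups alone (adjusted p = 0.00453) and with the mean of the probe sets (-0.54, adjusted p = 0.0365). Both probe sets of PLOD1 rose in all 4 hypoxia comparisons.

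PLOD3, which has lysyl hydroxylase and glycosyltransferase activity, rose in 3 of the 4 comparisons. In parental cells it read 7.27, 7.66 and 7.43 in normoxia and 7.81, 7.75 and 7.81 in hypoxia, and in ESR2 cells 7.18, 7.14 and 7.38 in normoxia and 7.70, 7.67 and 7.64 in hypoxia. The groups did not overlap, and the changes were 0.34 (SE 0.08, limma adjusted p = 0.00153) and 0.44 (adjusted p = 0.000187). With estradiol the change was 0.29 in parental cells (adjusted p = 0.00594) and -0.08 in ESR2 cells, where it did not pass the test (adjusted p = 0.410). With the control index in the fit the latter was -0.23 and called (limma adjusted p = 0.0485). The difference between these changes was -0.38 (adjusted p = 0.0122), a call lost after a repeated quantile normalization (-0.28). These values rest on 1 probe set: it was the only 1 of 5 that rose in parental cells and the only 1 that rose in ESR2 cells without estradiol, and the mean of the 5 gave 0.13, 0.13, 0.096 and 0.15 in the 4 hypoxia comparisons in turn. The first and the last of these means were called higher (limma adjusted p = 0.0456 and 0.0205). In ESR2 cells with estradiol 2 of the 5 probe sets rose, against the fall called with the control index.

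**Figure D2:**
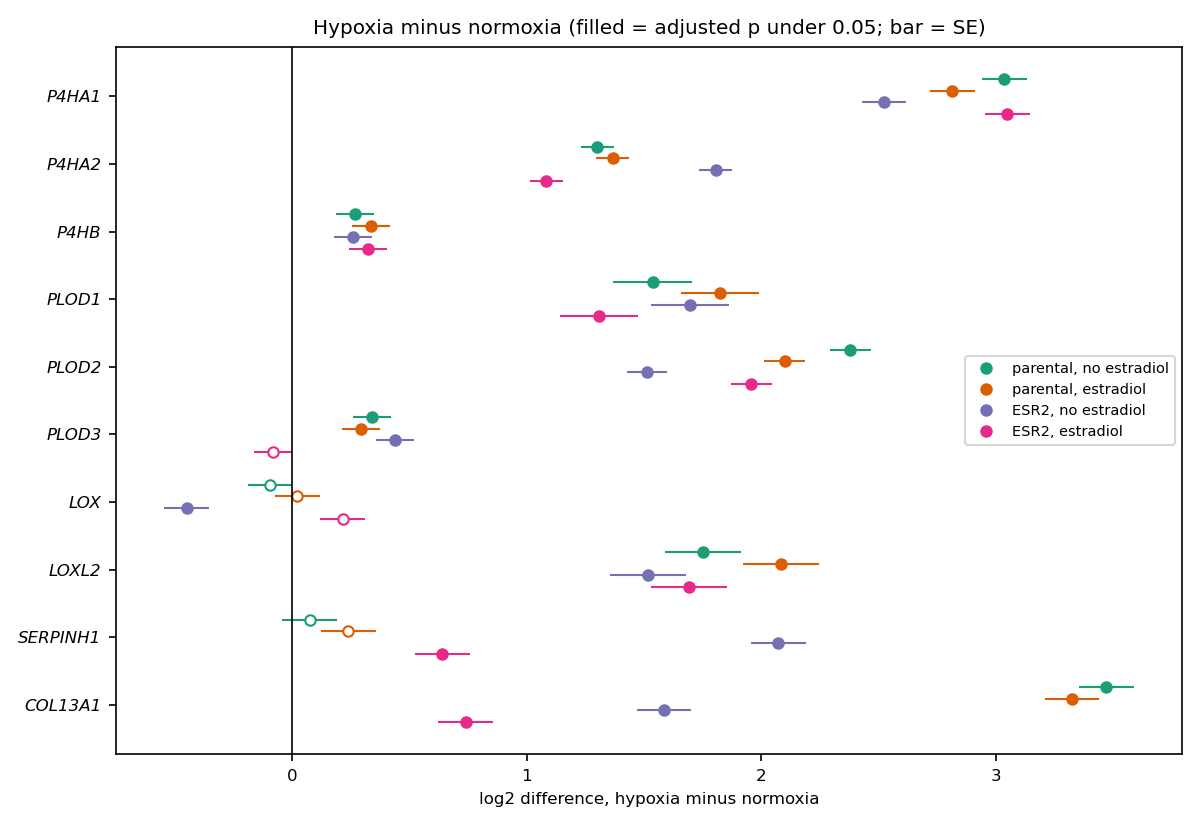
The x axis is the log2 difference, hypoxia minus normoxia, of each of the 10 genes (y axis) in parental and ESR2 cells without and with estradiol; bars are limma's SE, and filled points passed the test. P4HA1 lies between 2.52 and 3.05 in all 4 comparisons, SERPINH1 is at 0.07 and 0.24 in parental cells and at 2.07 and 0.64 in ESR2 cells, and COL13A1 runs from 3.47 to 0.74.

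LOXL2, a secreted lysyl oxidase-like enzyme, rose in hypoxia in every comparison. Parental cells read 4.99, 5.94 and 5.02 in normoxia and 6.95, 7.15 and 7.11 in hypoxia. ESR2 cells read 5.94, 5.57 and 5.63 in normoxia and 7.25, 7.23 and 7.22 in hypoxia. Normoxic and hypoxic arrays did not overlap, with changes of 1.75 (SE 0.16, limma adjusted p = 4.44e-09) and 1.52 (adjusted p = 1.33e-07). With estradiol parental cells read 4.68, 5.05 and 4.98 in normoxia and 6.88, 7.10 and 6.98 in hypoxia, and ESR2 cells 5.49, 5.69 and 5.64 in normoxia and 7.29, 7.38 and 7.23 in hypoxia. The changes were then 2.09 (adjusted p = 2.91e-10) and 1.69 (adjusted p = 5.96e-09).

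ESR2 cells had more LOXL2 signal than parental cells in normoxia with estradiol, by 0.70 (SE 0.16, limma adjusted p = 0.00426). The mean of the probe sets gave 0.16 there, which was not called. Without estradiol the normoxic difference was 0.39 and not called (adjusted p = 0.0972), and here replicate 2 of parental normoxia decided the call: without it the difference was 0.70 (adjusted p = 7.33e-05). The same array decided the difference between the hypoxia changes, which was -0.23 with it (adjusted p = 0.483) and -0.54 without it (adjusted p = 0.00529). The 4 probe sets of LOXL2 were not alike. The brightest and 1 other rose in parental cells and in ESR2 cells without estradiol, 3 of 4 rose with estradiol, and the mean of the 4 changed by 0.62, 0.60, 0.84 and 0.58 in parental, ESR2, parental with estradiol and ESR2 with estradiol cells.

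LOX, the founding lysyl oxidase, was dim in these cells and did not rise with hypoxia. Its signals ran from 3.92 to 4.67 over the 24 arrays, close to the array medians of 4.07 to 4.13. Parental cells read 4.21, 4.51 and 4.54 in normoxia and 4.29, 4.34 and 4.34 in hypoxia, a difference of -0.09 (95% interval -0.29 to 0.10) that was not called (limma adjusted p = 0.501). ESR2 cells read 4.65, 4.54 and 4.62 in normoxia and 3.92, 4.21 and 4.33 in hypoxia. These did not overlap, and LOX fell by 0.45 on the log2 scale (SE 0.10, limma adjusted p = 0.000714). Of the 6 probe sets of LOX only this one fell, and the mean of the 6 gave -0.11 (adjusted p = 0.106).

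With estradiol, LOX in parental cells read 4.40, 4.43 and 4.36 in normoxia and 4.40, 4.46 and 4.40 in hypoxia. ESR2 cells read 4.62, 4.39 and 4.28 in normoxia and 4.60, 4.67 and 4.65 in hypoxia. The groups overlapped in both cell types and neither difference was called (0.02, adjusted p = 0.904, and 0.22, adjusted p = 0.0611), although the latter was called without replicate 1 of normoxic ESR2 cells with estradiol (0.31, adjusted p = 0.0126). The difference between the hypoxia changes of ESR2 and parental cells without estradiol was -0.35 (limma adjusted p = 0.0493). That call was lost in 17 of 22 other settings, among them 9 of the 12 omissions of a single array (-0.38 to -0.24), all but those of replicates 2 and 3 of parental normoxia and of replicate 3 of hypoxic ESR2 cells.

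SERPINH1, the collagen chaperone HSP47, rose with hypoxia in ESR2 cells and did not pass the test in parental cells. Parental cells read 7.55, 7.999 and 7.71 in normoxia and 8.05, 7.79 and 7.65 in hypoxia. ESR2 cells read 6.99, 6.99 and 7.08 in normoxia and 8.98, 9.07 and 9.23 in hypoxia. The parental groups overlapped (difference 0.07, 95% interval -0.17 to 0.32, limma adjusted p = 0.689), while in ESR2 cells every hypoxic array lay above every normoxic one and SERPINH1 rose 4.21-fold (log2 2.07, SE 0.12, adjusted p = 4.44e-12). The changes differed by 2.00 (SE 0.16, adjusted p = 3.37e-09), and all 3 probe sets of SERPINH1 gave such a difference, from 2.00 to 2.60. ESR2 cells were lower than parental cells in normoxia, by 0.73 on the log2 scale (adjusted p = 9.20e-05), and higher in hypoxia, by 1.27 (adjusted p = 5.62e-09).

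The rise of SERPINH1 in ESR2 cells was smaller with estradiol. SERPINH1 in parental cells with estradiol read 7.59, 7.55 and 7.37 in normoxia and 7.51, 7.997 and 7.72 in hypoxia, a difference of 0.24 that was not called (limma adjusted p = 0.125). It was called without replicate 1 of hypoxic parental cells with estradiol (0.36, adjusted p = 0.0264). ESR2 cells with estradiol read 6.85, 6.94 and 6.94 in normoxia and 7.54, 7.61 and 7.51 in hypoxia, a 1.56-fold rise (0.64, adjusted p = 6.46e-05). The difference between the changes, 0.40, was not called (adjusted p = 0.0585), but was called without replicate 2 of hypoxic parental cells with estradiol (0.53) or replicate 3 of normoxic parental cells with estradiol (0.47). It was also called after a repeated quantile normalization (0.50, adjusted p = 0.0222), without the dimmest genes (adjusted p = 0.0488), with the mean of the probe sets (0.36, adjusted p = 0.0340), with an intensity trend (adjusted p = 0.0452) and with the spread of the compared groups alone (adjusted p = 0.0331). With the control index in the fit it was smaller, 0.23, and not called (limma adjusted p = 0.330).

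COL13A1, a collagen that spans the cell membrane, had 1 of the largest rises on the array in parental cells (7th of 18239 genes) and a far smaller one in ESR2 cells. Parental cells read 3.79, 3.69 and 3.68 in normoxia and 7.04, 7.32 and 7.22 in hypoxia. ESR2 cells read 4.22, 3.66 and 3.94 in normoxia and 5.73, 5.34 and 5.51 in hypoxia. Neither pair overlapped, and the rises were 11.1-fold (log2 3.47, SE 0.12, limma adjusted p = 1.18e-16) and 3.003-fold (1.59, adjusted p = 3.48e-10), a difference of -1.89 (SE 0.16, adjusted p = 7.51e-09). In normoxia the gene was at or below the array median on all but 1 array, and RMA compresses changes of dim genes.

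With estradiol COL13A1 in parental cells read 3.74, 3.76 and 3.56 in normoxia and 6.98, 7.06 and 6.999 in hypoxia, a change of 3.33 (limma adjusted p = 3.17e-16). ESR2 cells with estradiol read 3.62, 3.93 and 3.74 in normoxia and 4.50, 4.62 and 4.39 in hypoxia, a change of 0.74 (adjusted p = 9.74e-06). The hypoxic signals of the 4 conditions thus formed separate steps, parental with or without estradiol at 6.98 to 7.32, ESR2 at 5.34 to 5.73 and ESR2 with estradiol at 4.39 to 4.62. The changes with estradiol differed by -2.58 (SE 0.16, adjusted p = 1.53e-11). All 4 probe sets of COL13A1 rose in all 4 comparisons and were lower in hypoxic ESR2 cells than in hypoxic parental cells, and with the mean of the 4 the rise in ESR2 cells without estradiol was 1.05. Normoxic signals of ESR2 and parental cells differed by 0.22 without estradiol and 0.08 with it, neither of which was called (adjusted p = 0.209 and 0.746), though the former was called without replicate 2 of normoxic ESR2 cells (0.36, adjusted p = 0.0393).

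**Figure D3:**
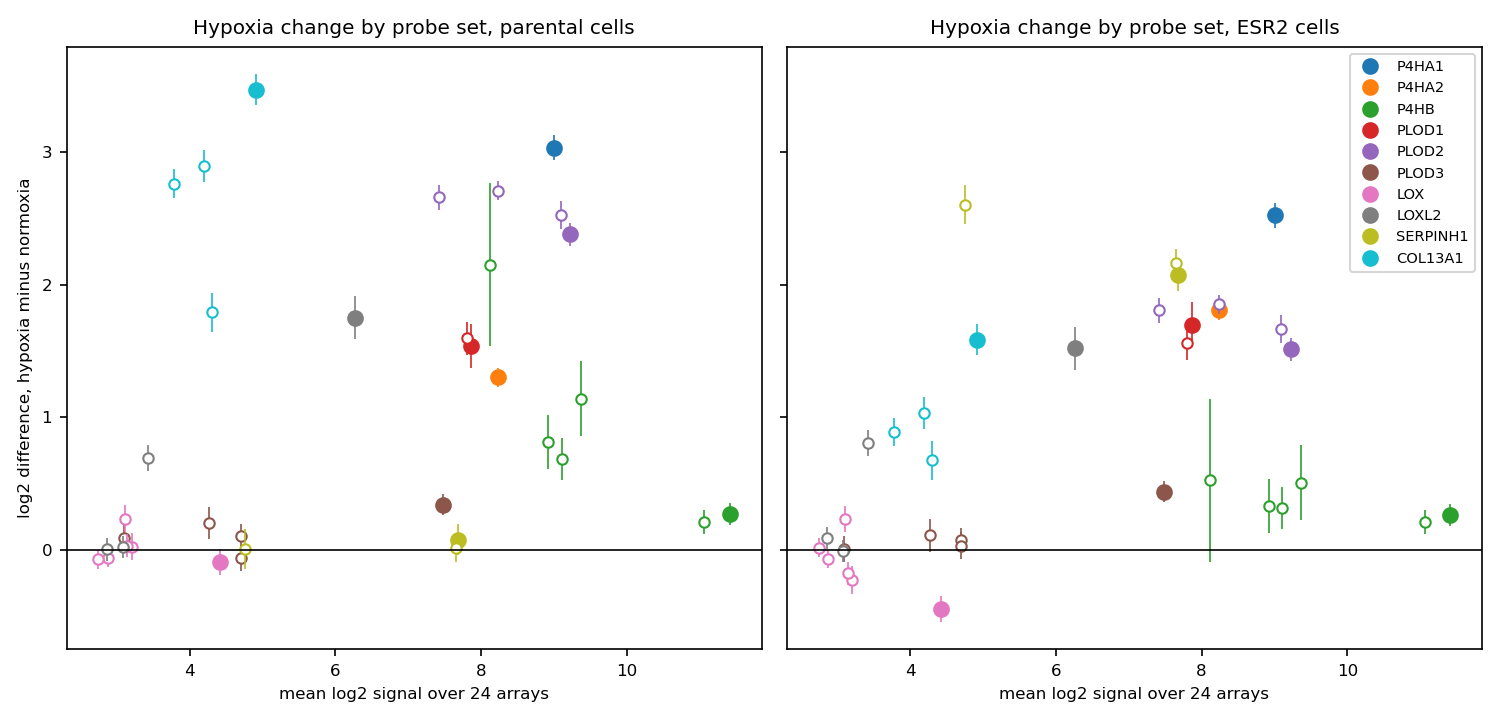
Each point is 1 of the 36 probe sets of the 10 genes, by its mean log2 signal over 24 arrays (x axis) and its log2 difference, hypoxia minus normoxia (y axis), without estradiol, in parental cells (left) and ESR2 cells (right). Large filled points are the probe sets used, open ones the others, and bars are limma's SE. The open points of PLOD2, COL13A1, PLOD1 and SERPINH1 lie on the side of 0 of the filled ones, while those of LOX and PLOD3 scatter about 0.

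ESR2 cells differed from parental cells in some of the 10 genes in each condition. In normoxia 1 of the 10 (PLOD2) was higher and 2 (P4HA2 and SERPINH1) were lower, where 18.6% of all genes passed the test (9.76% as higher, 8.86% as lower). In hypoxia 2 (P4HA2 and SERPINH1) were higher and 3 (P4HA1, PLOD2 and COL13A1) were lower, where 40.4% passed (20.4% as higher, 20% as lower). With estradiol 2 (PLOD2 and LOXL2) were higher and 2 (P4HA2 and SERPINH1) lower in normoxia, where 13.7% passed (8.45% as higher, 5.22% as lower). In hypoxia with estradiol 2 (P4HA1 and PLOD2) were higher and 4 (P4HA2, PLOD1, PLOD3 and COL13A1) lower, where 47.7% passed (27.8% as higher, 19.8% as lower). For PLOD3 the mean of its probe sets gave -0.047 there, which was not called. Some of these calls turn on single arrays. PLOD1 in hypoxia with estradiol (-0.42, limma adjusted p = 0.0421) was lost without any 1 of 5 of the 6 arrays, all but replicate 1 of the ESR2 group (-0.45 to -0.32). It was also lost after a repeated quantile normalization (-0.38, adjusted p = 0.0748) and with every probe set tested (adjusted p = 0.0503). With the control index in the fit it was -0.82 (adjusted p = 0.000680). That fit gave 0.28 for P4HA1 (adjusted p = 0.0796, not called), -0.56 for P4HA2, 0.53 for PLOD2, -0.59 for PLOD3 and -2.65 for COL13A1, the last 4 called, and called SERPINH1 (-0.38) and LOXL2 (-0.27) lower. Calls were gained in normoxia for PLOD1 without replicate 3 of the parental group (-0.48) and for PLOD3 without replicate 1 of the parental group (-0.31) or replicate 3 of the ESR2 group (-0.29). They were also gained for LOX in hypoxia without replicate 3 of the ESR2 group (-0.26) and for SERPINH1 in hypoxia with estradiol without replicate 1 of the parental group (-0.31). The hypoxia changes of 6 of the 10 differed between the cell types without estradiol (30.7% of all genes, 16.4% with a difference, ESR2 minus parental, above 0 and 14.3% below 0). The difference was above 0 for P4HA2 and SERPINH1 and below 0 for P4HA1, PLOD2, LOX and COL13A1. With estradiol 3 differed (38.6% of all genes, 20.6% above 0 and 18.1% below 0), and for these, P4HA2, PLOD3 and COL13A1, the difference was below 0. With the control index in the fit PLOD1 and LOXL2 (-0.92) were called below 0 as well.

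Estradiol moved none of the 10 genes in parental cells or in normoxic ESR2 cells by limma's test. In parental normoxia 0 of 10 passed (4 had an unadjusted p under 0.05), as did 0.011% of all genes, all of these lower. In parental hypoxia 0 of 10 passed (0 unadjusted, 0.0164% of all genes, 0.00548% as higher and 0.011% as lower), and in normoxic ESR2 cells 0 of 10 (1 unadjusted, 0% of all genes). The largest of these differences among the 10 were -0.42 for LOXL2 and -0.41 for PLOD1 in parental normoxia, and without replicate 2 of that group they were -0.11 and -0.082. PLOD2 in parental normoxia, at 0.29, was called without replicate 1 (0.38, adjusted p = 0.0384) and with array weights (0.22, adjusted p = 0.0260).

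In hypoxic ESR2 cells 8 of the 10 genes differed with estradiol, 3 higher and 5 lower, where 57% of all genes passed the test (35.4% as higher and 21.6% as lower). SERPINH1 fell from 8.98, 9.07 and 9.23 to 7.54, 7.61 and 7.51, 2.92-fold (log2 -1.55, SE 0.12, limma adjusted p = 1.51e-10), and COL13A1 fell 2.03-fold (-1.02, adjusted p = 1.12e-07). P4HA2 (-0.72, adjusted p = 1.40e-08), PLOD3 (-0.41, adjusted p = 0.000212) and PLOD1 (-0.42, adjusted p = 0.0375) were lower as well. PLOD2 rose by 0.63 (adjusted p = 2.03e-06), P4HA1 by 0.57 (adjusted p = 2.94e-05) and LOX by 0.49 (adjusted p = 0.000163), while P4HB (0.09) and LOXL2 (0.06) were not called. The 2 catalytic subunits of prolyl 4-hydroxylase thus moved in opposite directions, as did PLOD2 and the other 2 lysyl hydroxylases. The median of the 10 genes was -0.17, against 0.12 over all genes.

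The call of PLOD1 was lost without replicate 1 or 2 of hypoxic ESR2 cells or replicate 2 or 3 of the same cells with estradiol (-0.44 to -0.32). It was also lost after a repeated quantile normalization (-0.36, limma adjusted p = 0.0860). The dap index was 3.57 ± 0.16 (SD, n = 3) in hypoxic ESR2 cells with estradiol and 2.03 ± 0.03 (SD, n = 3) in those without. With the mean index of the control probe sets as a covariate, SERPINH1 was at -1.80, COL13A1 at -1.22, PLOD1 at -0.97, P4HA2 at -0.76, PLOD3 at -0.63, PLOD2 at 0.84, P4HA1 at 0.64 and LOX at 0.41, all called in the same direction. LOXL2 moved from 0.06 to -0.74 and was then called lower (limma adjusted p = 5.38e-05). As stated above, calls kept in this fit do not show that array quality had no part. For COL13A1 the mean of its 4 probe sets was -0.63 and called, for PLOD3 the mean of its 5 was -0.032 and not called, and for LOX the mean of 6 was 0.19 and called (adjusted p = 0.00407).

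The hypoxia change of ESR2 cells was also set against itself with and without estradiol, a comparison added after the values were seen. It differed for 7 of the 10 genes, where 43.8% of all genes passed the test, 25.4% with a difference, with minus without estradiol, above 0 and 18.4% below 0. The difference was -1.43 for SERPINH1 (limma adjusted p = 3.22e-07), -0.85 for COL13A1 (adjusted p = 0.000255), -0.72 for P4HA2 (adjusted p = 4.91e-06) and -0.52 for PLOD3 (adjusted p = 0.000984). It was 0.53 for P4HA1 (adjusted p = 0.00338), 0.44 for PLOD2 (adjusted p = 0.00609) and 0.66 for LOX (adjusted p = 0.000408), whose change was -0.45 without and 0.22 with estradiol. With the mean of probe sets the values were -0.45 for COL13A1 and 0.21 for LOX, both called, and 0.015 for PLOD3, not called. With the control index in the fit the 7 calls were kept, and PLOD1 (-0.95, adjusted p = 0.00604) and LOXL2 (-0.64, adjusted p = 0.00191) were called as well. That fit does not show that array quality had no part. In parental cells the same comparison called 0 of the 10 genes by limma (1 with an unadjusted p under 0.05) and 0.00548% of all genes.

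**Figure D4:**
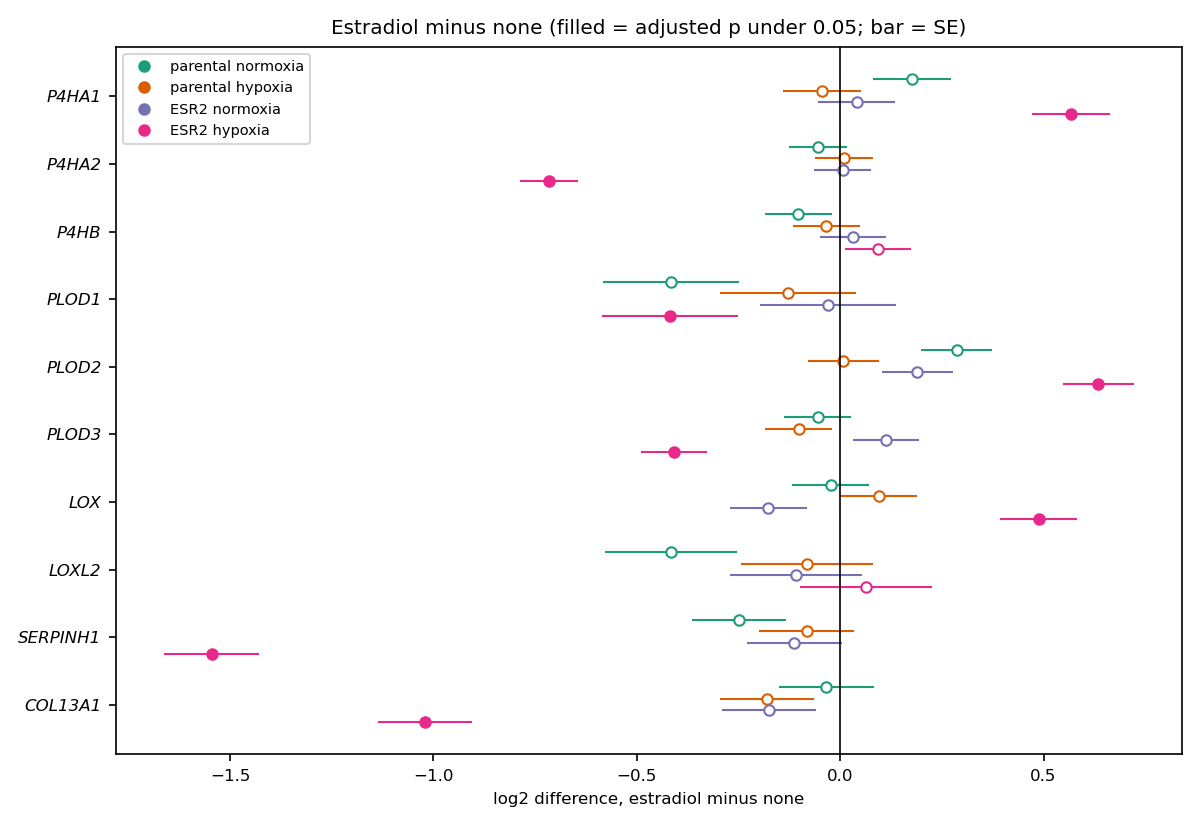
The x axis is the log2 difference, estradiol minus none, of each of the 10 genes (y axis) in parental and ESR2 cells in normoxia and hypoxia; bars are limma's SE, and filled points passed the test. Filled points occur only in hypoxic ESR2 cells, from -1.55 for SERPINH1 to 0.63 for PLOD2.

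Other genes of collagen modification and secretion did not rise together in hypoxia. Of 27 listed genes 26 were measured. These genes and the collagen chains below were fitted in the main setting only. The arrays that stood apart were neither left out nor adjusted for in their values. In parental cells 6 of 26 rose and 5 fell (23.1% and 19.2%, against 16.4% and 21.2% of all genes), and their median was 0.071. In ESR2 cells 8 rose and 4 fell (30.8% and 15.4%, against 14.4% and 18.2%), with a median of -0.068. With estradiol 3 rose and 5 fell in parental cells (11.5% and 19.2%, against 16.1% and 18.7% of all genes) and 11 rose and 4 fell in ESR2 cells (42.3% and 15.4%, against 29.6% and 22.6%). Their medians were 0.0085 and 0.15, against -0.0011 and 0.083 over all genes. CRTAP, a partner of the prolyl 3-hydroxylase, rose in all 4 comparisons, by 0.72, 0.53, 0.74 and 1.03 (limma adjusted p from 3.02e-10 to 2.66e-05). LOXL1, a relative of LOXL2, fell in all 4, by 1.07, 0.87, 1.07 and 0.84 on the log2 scale. LOXL3 fell in parental cells without and with estradiol (-0.53 and -0.56). PCOLCE2, an enhancer of procollagen processing, rose by 0.58, 0.33 and 0.50 in parental cells, ESR2 cells and parental cells with estradiol. BMP1, which cleaves procollagen, rose by 1.04 in ESR2 cells with estradiol.

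Without estradiol, several of these genes changed differently in ESR2 cells. SLC23A2, a transporter of ascorbate, fell in parental cells by 0.35 on the log2 scale and rose in ESR2 cells by 0.90, a difference of 1.25 (SE 0.15, limma adjusted p = 9.25e-07). FKBP10, a prolyl isomerase that assists collagen folding, fell by 0.45 in parental cells and rose by 0.35 in ESR2 cells (difference 0.80, adjusted p = 0.000318). The change in ESR2 cells minus that in parental cells was 0.60 for P3H4 and 0.56 for MIA2, a protein of the endoplasmic reticulum exit sites, which fell by 0.43 in parental cells. PPIB, the prolyl isomerase cyclophilin B, rose by 0.21 in parental cells and fell by 0.20 in ESR2 cells (difference -0.40, adjusted p = 0.000683). In all, the difference without estradiol was called above 0 for 5 of the 26 and below 0 for 4 (19.2% and 15.4%, against 16.4% and 14.3% of all genes). With estradiol, mean signals of ESR2 cells in normoxia and hypoxia were 4.91 and 4.28 for SLC23A2 and 7.34 and 6.95 for P3H4. They were 8.16 and 8.93 for FKBP10, 5.48 and 6.29 for MIA2 and 10.99 and 10.94 for PPIB.

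Among 32 other collagen chains 31 were measured. Of these 8 rose and 0 fell in hypoxic parental cells (25.8% and 0%, against 16.4% and 21.2% of all genes; median 0.093), and 4 rose and 4 fell in hypoxic ESR2 cells (12.9% each, against 14.4% and 18.2%; median -0.041). With estradiol 8 rose and 2 fell in parental cells (25.8% and 6.45%, against 16.1% and 18.7%; median 0.078), and 11 rose and 2 fell in ESR2 cells (35.5% and 6.45%, against 29.6% and 22.6%; median 0.14). The basement membrane chains COL4A5 (1.38 and 0.98) and COL4A4 (1.08 and 0.72), COL6A1 (0.90 and 0.40) and COL9A3 (0.65 and 0.67) rose in parental and in ESR2 cells. The difference between these changes was called for COL6A1 (-0.50, limma adjusted p = 0.000298) and COL4A5 (-0.40, adjusted p = 0.0407). The difference, ESR2 minus parental, was called above 0 for none of the 31 and below 0 for 7 (0% and 22.6%, against 16.4% and 14.3% of all genes), with a median difference of -0.21 against -0.044 over all genes. Dim signal limits some of these calls. Group means of COL2A1 (2.38 to 2.65) and COL9A1 (3.17 to 3.54), both called below 0, lay under the array medians of 4.07 to 4.13. Those of COL6A1 (8.78 to 9.68) and COL12A1 (5.65 to 6.55), also called below 0, lay above them. COL4A5 in ESR2 cells with estradiol fell by 0.33 on the log2 scale in hypoxia, and COL5A2 by 1.13. Among the 11 chains that rose there were COL9A3 (0.76) and COL12A1 (0.70). The mean of COL5A2 in hypoxic ESR2 cells with estradiol (3.36) lay under the array medians, as did normoxic means of COL4A4 (3.13 to 3.65).

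**Figure D5:**
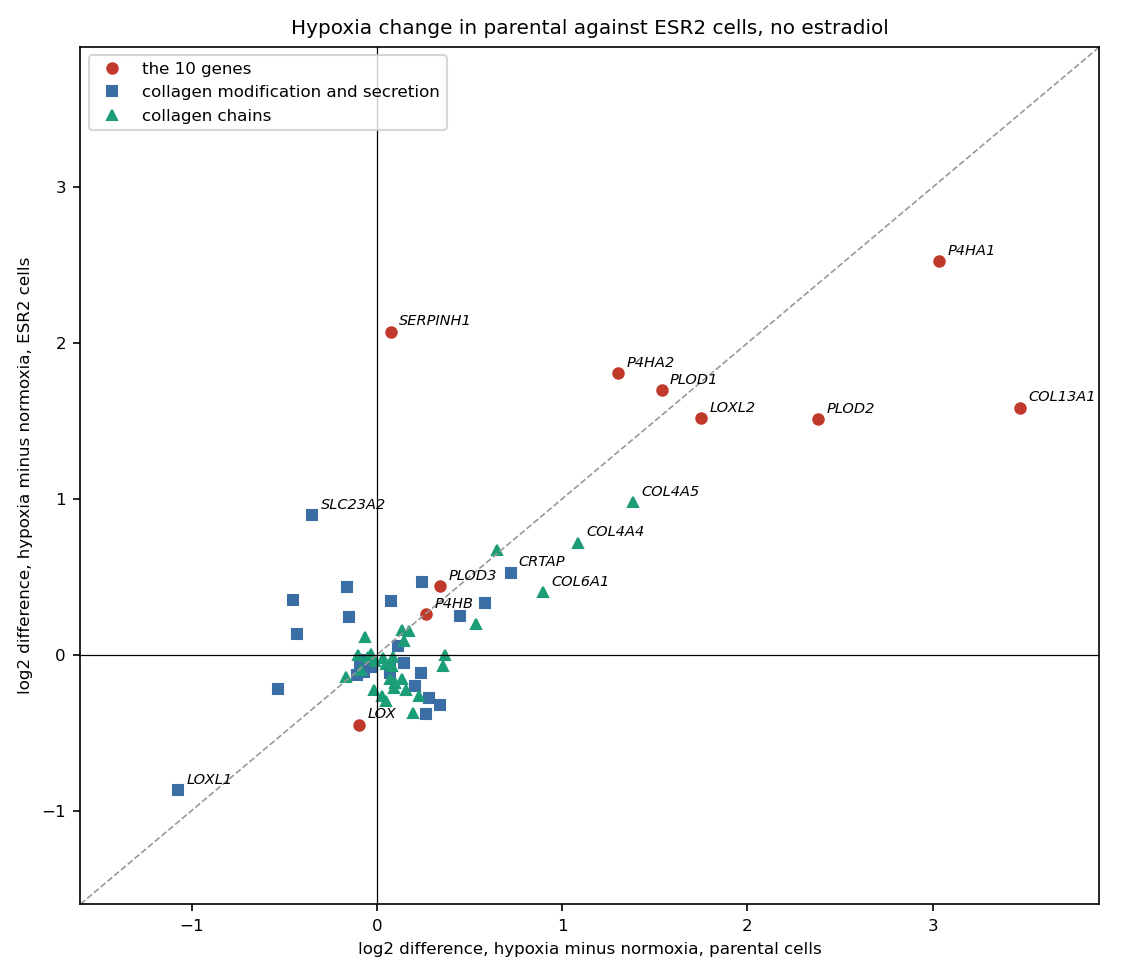
Each point is a gene, by its log2 difference, hypoxia minus normoxia, in parental cells (x axis) and in ESR2 cells (y axis), both without estradiol; red circles are the 10 genes, blue squares genes of collagen modification and secretion and green triangles other collagen chains, and the dashed line marks equal change. COL13A1 (3.47 and 1.59) and PLOD2 (2.38 and 1.51) lie below the line, and SERPINH1 (0.07 and 2.07) lies far above it.

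The genes whose signals followed the 10 most closely were sought among those with an SD over the 8 group means of at least 0.3. Pearson's r over the 24 arrays is given as a description: the arrays fall into 8 groups, and r reflects mostly the group levels. P4HA1 was followed by KDM3A, a histone demethylase (r = 0.993), by ALDOC, a glycolytic aldolase (0.991), and by CFAP96 (0.991). PLOD2 was followed by BNIP3L, a mitophagy receptor (0.992), PLEKHA2 (0.984) and KRT19 (0.984), and P4HA2 by PFKP, a phosphofructokinase (0.980), ZNF503 (0.976) and FGFR3 (0.972). ZNF503 (0.978), PGM1 (0.972) and L1CAM (0.969) followed PLOD1, and TPP1 (0.978), CSRP2 (0.975) and RTL8C (0.974) followed LOXL2. COL13A1 was followed by OTUD1 (0.986), NFIL3 (0.985) and RIMKLA (0.984). Less close likenesses were found for PLOD3 (SIAH2, 0.936, SPRY4, 0.933, and SMAD3, 0.923), P4HB (PDLIM3, 0.936, RAB7A, 0.931, and PDLIM1, 0.929) and SERPINH1 (TMEM44, 0.924, SMAD7, 0.922, and PRAME, 0.918). For LOX the highest values were 0.710 for SCRN2, 0.693 for TRA and 0.677 for SEC11C.

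Among the 10 genes themselves, P4HA1 and PLOD2 were closest over the 24 arrays (r = 0.977), followed by P4HA2 and PLOD1 (r = 0.963). P4HA1 and P4HA2 had r = 0.920. SERPINH1 followed P4HA2 (0.748) more than P4HA1 (0.508), and LOX was at -0.163 with P4HA1 and -0.431 with P4HA2.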

How the data were processed

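The deposited values are log2 signals that the authors made with RMA, which corrects background, quantile-normalizes and sums up each probe set; RMA and affy are named per the submitters' processing notes, with versions not given in the sources used here. RMA compresses changes of dim genes, and quantile normalization removes much of a shift shared by most genes. Where labelled RNA is short, probes distant from the 3′ end read less signal.

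Probe sets with 1 gene symbol in GEO's platform annotation were kept (45253 of 49386, 93 of which are controls), and each of 18239 genes was read from its brightest probe set by mean over 24 arrays, with no filter on dim genes; all 10 genes also passed a filter that drops the dimmest genes, 1 in 3. A mean per group was estimated from all 24 arrays by limma 3.58.1 (lmFit, eBayes, 16 residual degrees of freedom, R 4.3.3), and p-values were adjusted by Benjamini-Hochberg over all genes within each of 16 comparisons, 2 of them added after the values were seen, with a threshold of 0.05. The script was tested on simulated data. Figures were made with matplotlib 3.10.9. The probe sets of P4HA1, PLOD3, LOX and SERPINH1 (suffix _s) and of P4HB and PLOD2 (suffix _x) are of kinds that may bind more than 1 transcript. Promoter sequences are RefSeq's.

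Named genes are the 10 genes, up to 5 called genes of each collagen list with the smallest p in each hypoxia comparison and in the difference without estradiol, the 3 genes most like each of the 10, and ESR2; values of other comparisons are given for these too. The members and lists were chosen with earlier results of these data known. In no comparison did the deviations of same-numbered replicates correlate by over 0.1 in all 3 pairs (r from -0.288 to 0.287, above 0 in all 3 pairs of 2 comparisons), so the numbers were not taken to pair the samples. Alternatives changed the normalization (quantile again, or centring on array medians), the genes (dim ones left out), the probe sets (their mean, or each tested) and the model. In the model these were a trend with robust prior, weights for arrays, a spread from the compared groups alone, a replicate block, and as a covariate the mean 3′ over 5′ difference of actin, dap and thr controls, the control index. Each array was also left out in turn.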

Additional observations from a re-analysis of the deposited data

Results flagged for a closer look

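These results are listed because the change of a gene differed between cell types, or between cells with and without estradiol, by limma's test of the difference itself (adjusted p under 0.05). The first kind is the hypoxia change of ESR2 cells minus that of parental cells without estradiol: SERPINH1 2.00, COL13A1 -1.89, PLOD2 -0.87, P4HA1 -0.51, P4HA2 0.51 and LOX -0.35. The same difference with estradiol was -2.58 for COL13A1, -0.38 for PLOD3 and -0.28 for P4HA2. The last kind is the hypoxia change of ESR2 cells with estradiol minus that without: SERPINH1 -1.43, COL13A1 -0.85, P4HA2 -0.72, LOX 0.66, P4HA1 0.53, PLOD3 -0.52 and PLOD2 0.44. In the last kind and in the difference with estradiol, the arrays of hypoxic ESR2 cells with estradiol are those with the high index of control probe sets. The first kind uses parental normoxia, whose replicate 2 stood apart as well. Without that replicate its values were 1.88, -1.87, -0.74, -0.45, 0.45 and -0.40, in the order above, all called. With the index in the fit the difference with estradiol was -2.71 for COL13A1, -0.52 for PLOD3 and -0.31 for P4HA2, all called. In that fit the 7 values of the last kind were -1.69, -1.05, -0.76, 0.58, 0.60, -0.75 and 0.65, in the order above, all called. That fit does not show that array quality had no part.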

How the results depend on the processing

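Of 76 called values of the 10 genes, 55 kept their direction and their side of the threshold under every alternative other than single probe sets. The count of the 10 genes whose hypoxia change with estradiol differed between the cell types was 3 and became 5 with the mean of probe sets, 5 with array weights, 6 with only the groups compared and 5 with the control index as a covariate. For ESR2 against parental cells in normoxia the count of 3 became 5 with array weights, and for estradiol in parental normoxia the count of 0 became 1. Leaving out single arrays gave 0 to 1 for the latter and 3 to 5 for ESR2 against parental cells in hypoxia, where the full set gave 5; in that comparison with estradiol it gave 4 to 5, where the full set gave 6. Some directions were reversed. With the covariate LOXL2 was at -0.27 (ESR2 against parental cells, hypoxia with estradiol), -0.74 (estradiol in hypoxic ESR2 cells) and -0.64 (hypoxia change of ESR2 cells with against without estradiol). With the mean of probe sets PLOD3 was at 0.15 (hypoxia in ESR2 cells with estradiol), 0.050 (difference between cell types with estradiol) and 0.015 (with against without estradiol). The cause was not tested. Single other probe sets reversed 32 values. PLOD3 was at -0.062 for hypoxia in parental cells, -0.0069 for the same with estradiol, 0.32 and 0.30 for hypoxia in ESR2 cells with estradiol, 0.23 and 0.10 for ESR2 against parental cells in hypoxia with estradiol, 0.17, 0.22 and 0.0056 for estradiol in hypoxic ESR2 cells, 0.33, 0.27, 0.0036 and 0.025 for the difference between cell types with estradiol, and 0.25, 0.27, 0.043 and 0.037 for with against without estradiol. LOX was at 0.23 and 0.015 for hypoxia in ESR2 cells, -0.056 and -0.045 for estradiol in hypoxic ESR2 cells, 0.088 for the difference between cell types, and -0.066 and -0.11 for with against without estradiol. LOXL2 was at -0.053 and -0.072 for ESR2 against parental cells in normoxia with estradiol, -0.41 and -0.39 for the same in hypoxia, -0.47 for estradiol in hypoxic ESR2 cells, -0.50 for with against without estradiol, and -0.012 for hypoxia in ESR2 cells. COL13A1 was at 0.042 for with against without estradiol. With the replicate block 158 of 160 values kept their side of the threshold; the exceptions were P4HA1 for ESR2 against parental cells in hypoxia with estradiol (adjusted p = 0.0508) and LOX for the difference between cell types (adjusted p = 0.0573). The median over all genes for estradiol in hypoxic ESR2 cells was 0.12, and 0.074 or 0.088 after quantile normalization again or centring. Dim signals limit LOX, COL13A1 in normoxia, and collagen chains such as COL2A1 and COL9A1.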
